A study of Mus musculus with 4 samples.

Results

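The 6 genes described here encode receptors of the tumour necrosis factor (TNF) receptor superfamily: Tnfrsf4 (OX40), Tnfrsf9 (4-1BB), Tnfrsf18 (GITR), Tnfrsf1b (TNFR2), Cd27 and Tnfrsf26. They were chosen by symbol, and all 6 were found among the 32285 genes of the count files. They were followed in mouse splenic T cells that had been sorted for CD3 and CD4 and cultured for 6 h with beads carrying antibodies to CD3 and CD28. There were 4 droplet single-cell libraries with 3′ chemistry, 2 labelled Irf5-/- (1 female, 1 male) and 2 labelled WT (1 female, 1 male). All 4 had the same stimulation, and no unstimulated culture was analysed here. The labels give neither the Irf5 allele, nor the number of mice in a library, nor ages, dates or batches, so p-values measure the spread between these libraries only.

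OX40, 4-1BB, GITR, TNFR2 and CD27 are costimulatory receptors: after ligand binding they recruit TRAF adaptors, which feed the canonical and non-canonical NF-kB pathways and support survival and expansion of T cells. CD27 is carried by naive T cells, OX40 and 4-1BB are induced by antigen receptor signals, and regulatory T cells, which depend on the transcription factor Foxp3, carry OX40, GITR and TNFR2 without added stimulation. Tnfrsf26 is a little-studied mouse receptor encoded beside the decoy TRAIL receptor genes Tnfrsf22 and Tnfrsf23. Only transcripts were measured, so receptor protein and costimulation were not.

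Cells were kept at 2000 or more UMIs (transcript molecules counted by molecular identifiers), 500 or more genes and at most 10% mitochondrial UMIs. Of 19100 such cells, 18938 were T cells by marker genes, from 1782 in the female library labelled wild type to 6509 in the male library labelled knockout. Median UMIs per T cell ran from 5101 to 9650.5, and both libraries labelled knockout were the shallower library of their sex. Free RNA, read from droplets with under 200 UMIs, made up 8.62% to 14.7% of UMIs in 3 libraries and 36.2% in the female library labelled wild type. Between 2 and 14 cell barcodes were shared by any pair of libraries, 43 in all. Irf5 went against the labels: it stood at 8.21 and 8.71 CPM (UMIs of the gene per 1000000 UMIs, here of all T cells) in the female and male libraries labelled knockout, and at 0.91 and 1.01 in those labelled wild type. Since 3′ tags outside a deleted part say nothing of the deletion, and the allele was not given, the libraries are called by their labels throughout.

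T cells with at least 1 Foxp3 UMI formed the Foxp3-positive class. The other T cells were split into resting and activated Foxp3-negative cells by a score, the log2 ratio of 12 activation genes (such as Nr4a1, Egr2, Irf4 and Myc) to 12 resting genes (such as Klf2 and S1pr1), at a single cut for all libraries. No receptor gene is in either list. Resting here means cells of the stimulated culture that stayed low in the score. Series of 4 values are given as females first, then males, with the library labelled knockout ahead of that labelled wild type in each sex. In that order there were 284, 39, 354 and 165 Foxp3-positive cells. The female library labelled wild type therefore rests on 39 Foxp3-positive cells. Resting cells numbered 442 to 1671 and activated cells 1301 to 4484 per library. The 7 T cell markers summed to between 1603 and 3466 CPM in every class and library. The CD8 markers Cd8a and Cd8b1 summed to 12.4 to 16.6 in resting, 7.72 to 9.65 in activated and 6.96 to 10.1 in Foxp3-positive cells, of which Cd8a made up at most 1.47, and 4.26% to 6.65% of T cells per library had a UMI of either. Ikzf2, a regulatory T cell marker, stood at 782 to 1240 in Foxp3-positive cells and at 26.4 to 92.6 in the Foxp3-negative classes.

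On GRCm38 (mm10), with GENCODE M21 positions, 4 of the 6 genes lie on chromosome 4. Tnfrsf4 lies at chr4:156013843-156016612 and Tnfrsf18 begins 9.55 kb downstream, at chr4:156026164-156028895, both on the plus strand. Tnfrsf9 (chr4:150914562-150946102, plus strand) and Tnfrsf1b (chr4:145213463-145246870, minus strand) lie apart from them. Cd27 lies at chr6:125232622-125237010 and Tnfrsf26 at chr7:143607659-143628722, both on the minus strand. The use of strand in counting was not given in the sources used here. Whether reads were told apart where genes overlap on opposite strands is therefore not known. This touches Tnfrsf9 (28781 bases shared with Camta1), Tnfrsf18 (all 2732 bases within Gm16008), Cd27 (all 4389 bases within Vamp1) and Tnfrsf26 (699 bases shared with E230032D23Rik).

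The 250 bases before the start sites of the 4 receptor genes that were highest in Foxp3-positive cells are printed to let a reader compare sequences of genes that moved together. They are from RefSeq on GRCm38.p6, 5′ to 3′ on the gene's strand, with capitals at matches to the NF-kB letters (GGG, any 2 bases, then TTTCC) or the AP-1 letters (TGANTCA). Both strands were searched, in windows that ran on to 50 bases after the start. For Tnfrsf4, Tnfrsf9 and Tnfrsf18 the RefSeq starts differ from the GENCODE gene starts above. Both Tnfrsf9 windows lie inside the GENCODE gene, whose own start was not searched, and the Tnfrsf18 window overlaps its gene.
Tnfrsf4 (chr4:156013445-156013694, plus strand): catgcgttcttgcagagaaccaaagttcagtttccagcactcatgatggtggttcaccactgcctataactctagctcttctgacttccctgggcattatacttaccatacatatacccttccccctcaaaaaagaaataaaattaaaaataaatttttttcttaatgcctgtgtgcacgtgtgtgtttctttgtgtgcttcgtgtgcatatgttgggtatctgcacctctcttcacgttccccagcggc
Tnfrsf18 (chr4:156026072-156026321, plus strand): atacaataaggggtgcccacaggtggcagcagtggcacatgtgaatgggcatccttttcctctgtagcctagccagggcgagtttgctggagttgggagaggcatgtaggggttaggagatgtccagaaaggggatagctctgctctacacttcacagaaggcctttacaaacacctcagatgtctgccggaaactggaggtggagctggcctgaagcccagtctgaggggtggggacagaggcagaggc
Tnfrsf9 (chr4:150927749-150927998, plus strand, the downstream start of 2): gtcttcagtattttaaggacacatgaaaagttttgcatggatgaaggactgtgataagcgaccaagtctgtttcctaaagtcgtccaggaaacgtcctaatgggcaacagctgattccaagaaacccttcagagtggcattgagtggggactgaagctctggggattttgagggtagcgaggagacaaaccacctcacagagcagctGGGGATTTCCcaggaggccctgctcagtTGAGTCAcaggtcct
Tnfrsf1b (chr4:145246871-145247120, minus strand): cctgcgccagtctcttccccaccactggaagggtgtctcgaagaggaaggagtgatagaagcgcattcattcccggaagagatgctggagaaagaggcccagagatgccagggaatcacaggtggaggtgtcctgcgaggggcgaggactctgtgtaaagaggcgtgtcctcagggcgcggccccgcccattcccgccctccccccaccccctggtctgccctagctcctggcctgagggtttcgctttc
Of the 6 windows of 5 receptor genes in the table, only the downstream start of Tnfrsf9 held either motif, with GGGGATTTCC at -43 and TGAGTCA at -15 from the start. Among 32851 promoter windows of the same length, 1.63% held the NF-kB letters and 7.81% the AP-1 letters. The shorter NFAT letters, GGAAA, were in 5 of the 6 windows and in 61.3% of all windows, and at -38 of Tnfrsf9 they overlap the NF-kB match. These matches describe letters, not bound sites.

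Across the classes, OX40, 4-1BB, GITR and TNFR2 transcripts rose in the same order in all 4 libraries, from resting to activated Foxp3-negative cells and on to Foxp3-positive cells. Tnfrsf26 fell sharply with activation, and Cd27 moved little. Levels are CPM, scaled with TMM factors over the 12 sums of 4 libraries and 3 classes. Of the 6 genes, 5 rose and 1 fell between resting and activated cells, in a comparison where 83.2% of 10616 genes tested were called at an adjusted p under 0.05 (41.2% higher and 42.0% lower). Between activated Foxp3-negative and Foxp3-positive cells 5 rose, where 55.2% of genes were called, 28.1% higher and 27.1% lower. Between resting and Foxp3-positive cells 5 rose and 1 fell, where 57.6% were called, 33.5% higher and 24.2% lower. So being called at all says little about these genes, and the sizes carry the description. Their median log2 fold change was 0.81, 1.78 and 2.58 in the 3 comparisons, beside -0.02, 0.02 and 0.06 over all genes. Without regard to sign, the median change over all genes was log2 0.81, 0.44 and 0.50. Between resting and activated cells the receptor median was therefore about the same as the typical size of change. TMM scaling moved the median of all genes by 0.18 between resting and activated cells and by -0.24 between activated and Foxp3-positive cells, on the log2 scale, and without it Cd27 between activated and Foxp3-positive cells was the 1 value of the 6 genes that changed direction in these 3 comparisons.

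Tnfrsf4 encodes OX40, the receptor of OX40 ligand on antigen-presenting cells. It stood at 128, 75.1, 88.4 and 60.1 CPM in resting cells, at 481, 334, 473 and 351 in activated cells, and at 1961, 1580, 1980 and 1829 in Foxp3-positive cells. The 3 ranges did not overlap, and within each library Foxp3-positive cells were 4.08-fold to 5.22-fold above activated cells. Activated cells were 4.74-fold above resting cells (log2 2.25 ± 0.09 SE, edgeR adjusted p = 1.15e-15) and Foxp3-positive cells 4.53-fold above activated cells (log2 2.18 ± 0.08, edgeR adjusted p = 1.12e-14). Counted per cell, Foxp3-positive cells held 11.9 to 16.8 Tnfrsf4 UMIs and resting cells 0.39 to 0.50. Foxp3-positive cells were 2.19% to 5.44% of T cells and carried 11.0% to 23.3% of all Tnfrsf4 UMIs.

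Tnfrsf9 encodes 4-1BB, which costimulates through TRAF1 and TRAF2. It stood at 56.0, 21.4, 34.8 and 32.4 CPM in resting cells, at 130, 135, 110 and 136 in activated cells, and at 752, 556, 649 and 507 in Foxp3-positive cells. Every library kept the order, with a gap between each pair of classes. The rise with activation was 3.44-fold (log2 1.78 ± 0.13, edgeR adjusted p = 1.79e-11) and the further rise in Foxp3-positive cells 4.84-fold (log2 2.28 ± 0.11, edgeR adjusted p = 5.34e-13). Within libraries the rise with activation ran from 2.32-fold to 6.31-fold, and over the alternative settings from log2 1.24 with thinned cells to 3.13 with clusters in place of the cut. The antisense neighbour Camta1 stood at 19.2 to 26.6 in resting, 39.0 to 47.2 in activated and 19.7 to 25.7 in Foxp3-positive cells, and its part in the Tnfrsf9 counts was not tested.

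Tnfrsf18 encodes GITR. It stood at 215, 153, 186 and 129 CPM in resting cells, 303, 241, 313 and 255 in activated cells and 1110, 993, 1060 and 960 in Foxp3-positive cells. Activated cells were above resting cells of the same library in 4 of 4 libraries, and Foxp3-positive cells lay far above both. The step with activation was small, 1.64-fold (log2 0.72 ± 0.06, edgeR adjusted p = 1.13e-09), and the step to Foxp3-positive cells 3.69-fold (log2 1.88 ± 0.07, edgeR adjusted p = 1.75e-15). The overlapping antisense gene Gm16008 had 16, 61 and 11 UMIs over all libraries in resting, activated and Foxp3-positive cells. Tnfrsf18 had 3438 to 14960 UMIs per library over all T cells.

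Tnfrsf1b encodes TNFR2, the TNF receptor without a death domain. Its transcripts were sparse, at 15.6, 9.58, 11.2 and 10.0 CPM in resting cells, 20.5, 24.9, 21.0 and 22.7 in activated cells and 91.1, 61.0, 62.0 and 60.2 in Foxp3-positive cells. The classes did not overlap. The steps were 1.87-fold (log2 0.90 ± 0.13, edgeR adjusted p = 1.09e-06) and 3.18-fold (log2 1.67 ± 0.13, edgeR adjusted p = 4.53e-10). In the female library labelled wild type the Foxp3-positive value rests on 19 UMIs.

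Cd27 encodes CD27, the receptor of CD70. It stood at 124, 112, 128 and 141 CPM in resting cells, 143, 154, 174 and 196 in activated cells and 140, 138, 176 and 198 in Foxp3-positive cells. The resting range lay just below the activated one, and the Foxp3-positive range overlapped both. Activated cells were above resting cells within 4 of 4 libraries, by 1.32-fold (log2 0.40 ± 0.05, edgeR adjusted p = 7.35e-07). Foxp3-positive and activated cells differed by log2 -0.02 (95% interval -0.15 to 0.11, edgeR adjusted p = 0.893). That last value depends on the processing, in both directions: it was -0.31 (edgeR adjusted p = 4.41e-05) without the low-count filter, 0.22 (edgeR adjusted p = 0.00744) on total UMIs and 0.34 (edgeR adjusted p = 0.0124) with cells thinned to 2000 UMIs. The overlapping gene Vamp1 stood at 5.01 to 22.5.

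Tnfrsf26 ran the other way. It stood at 72.1, 67.0, 65.7 and 70.5 CPM in resting cells, at 10.4, 9.31, 10.3 and 9.26 in activated cells and at 12.2, 16.1, 12.4 and 14.6 in Foxp3-positive cells, the last from only 5 to 32 UMIs per library. The resting values lay within a narrow band and far above every other value. Activated cells were 6.96-fold below resting cells (log2 -2.80 ± 0.07, edgeR adjusted p = 4.59e-19). Since activated cells held more RNA, the fall per cell was smaller, 4.25-fold to 5.10-fold across libraries, from 0.284 to 0.457 UMIs per resting cell to 0.0594 to 0.0927 per activated cell. Resting cells were 24.8% to 25.8% of T cells and carried 59.2% to 62.6% of Tnfrsf26 UMIs. The 1.32-fold higher value in Foxp3-positive than in activated cells (log2 0.40 ± 0.16, edgeR adjusted p = 0.044) was lost without any of the 4 libraries in turn, at edgeR adjusted p of 0.0632 to 0.225. It fell to log2 0.04 (edgeR adjusted p = 0.929) where Foxp3-positive cells needed 2 Foxp3 UMIs and to 0.10 (edgeR adjusted p = 0.837) without the low-count filter. DESeq2 did not call it (adjusted p = 0.0871), nor did edgeR with thinned cells (adjusted p = 0.422), at log2 0.36 and 0.40. The antisense gene E230032D23Rik had the same pattern, at 50.8 to 59.8 in resting and 1.95 to 3.02 in activated cells, and with strand use unknown the share of either gene in the other's counts was not tested.

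**Figure D1:**
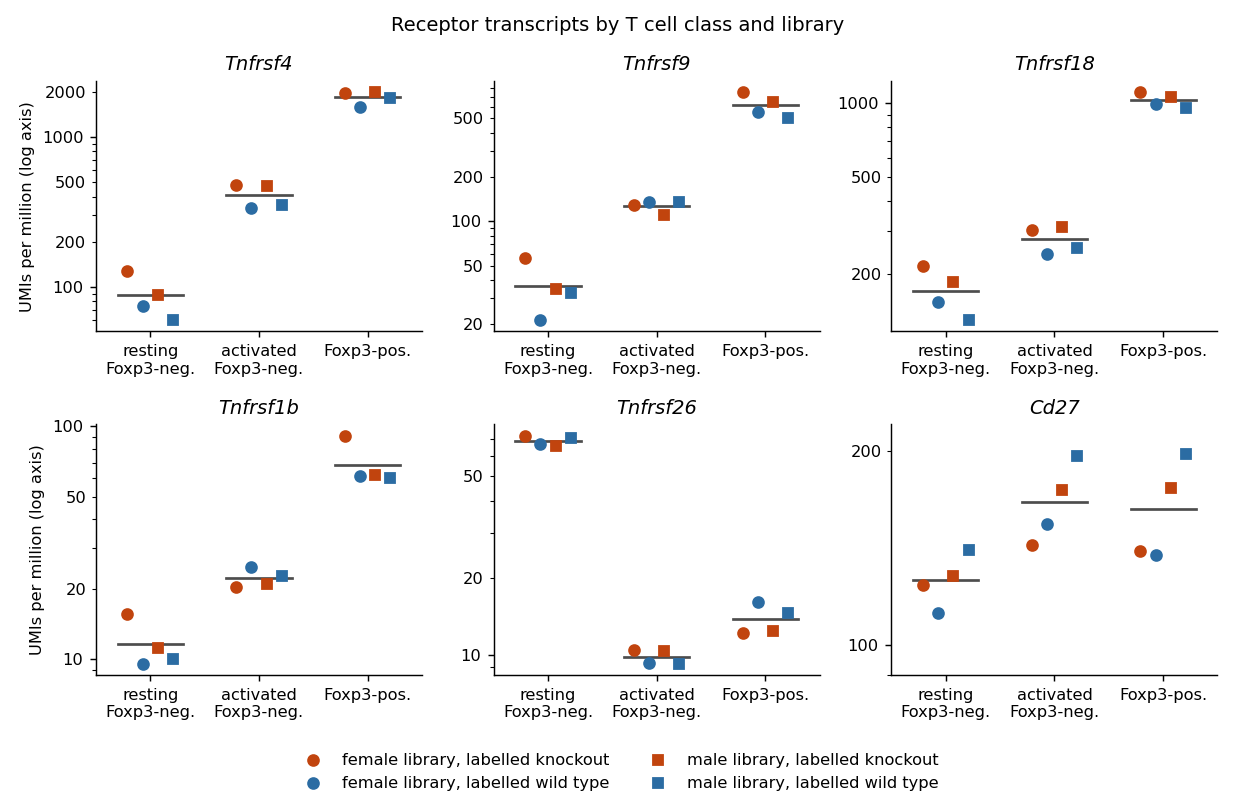
CPM (log axis, TMM-scaled) of each receptor gene in the 3 T cell classes, 1 point per library and a bar at the mean of 4. Tnfrsf4, Tnfrsf9, Tnfrsf18 and Tnfrsf1b climb to the Foxp3-positive class in every library, Tnfrsf26 is 65.7 to 72.1 in resting and at most 16.1 elsewhere, and Cd27 is 112 to 141 in resting, 143 to 196 in activated and 138 to 198 in Foxp3-positive cells.

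Foxp3-positive cells fall on both sides of the activation cut, so they were also compared with Foxp3-negative cells on the activated side alone. There OX40, 4-1BB, GITR and TNFR2 stayed higher in Foxp3-positive cells, while Cd27 was slightly lower. In this comparison 30.4% of 9844 genes were called, 16.2% higher and 14.2% lower, and 4 receptor genes rose and 1 fell. Fold changes were 5.66 for Tnfrsf4 (log2 95% interval 2.39 to 2.62, edgeR adjusted p = 3.21e-25), 5.38 for Tnfrsf9 (log2 2.43 ± 0.07), 4.15 for Tnfrsf18 (log2 2.05 ± 0.06) and 3.69 for Tnfrsf1b (log2 1.88 ± 0.13). Tnfrsf26 differed by log2 -0.03 (95% interval -0.57 to 0.50), and by -1.57 (edgeR adjusted p = 0.277) with thinned cells. Cd27 fell by 0.26 ± 0.08 on the log2 scale (edgeR adjusted p = 0.0102), a call lost on total UMIs (-0.10, adjusted p = 0.38), with thinned cells (-0.06, adjusted p = 0.903) and with clusters in place of the cut (0.01, adjusted p = 0.875).

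Within Foxp3-positive cells the 2 sides of the cut differed by gene. Tnfrsf4 was 2.05-fold to 2.97-fold higher on the activated side in the 4 libraries, at 2104 to 2477 against 803 to 1175 CPM of total UMIs. Cd27 was 1.79-fold to 2.60-fold higher on the resting side, at 233 to 316 against 98.2 to 159. For Tnfrsf9 the ratio of the activated to the resting side ran from 0.893 to 1.58, and for Tnfrsf18 from 1.02 to 1.64, so the sides were closer. These ratios are descriptions; the female library labelled wild type has 22 and 17 cells on the activated and resting sides.

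**Figure D2:**
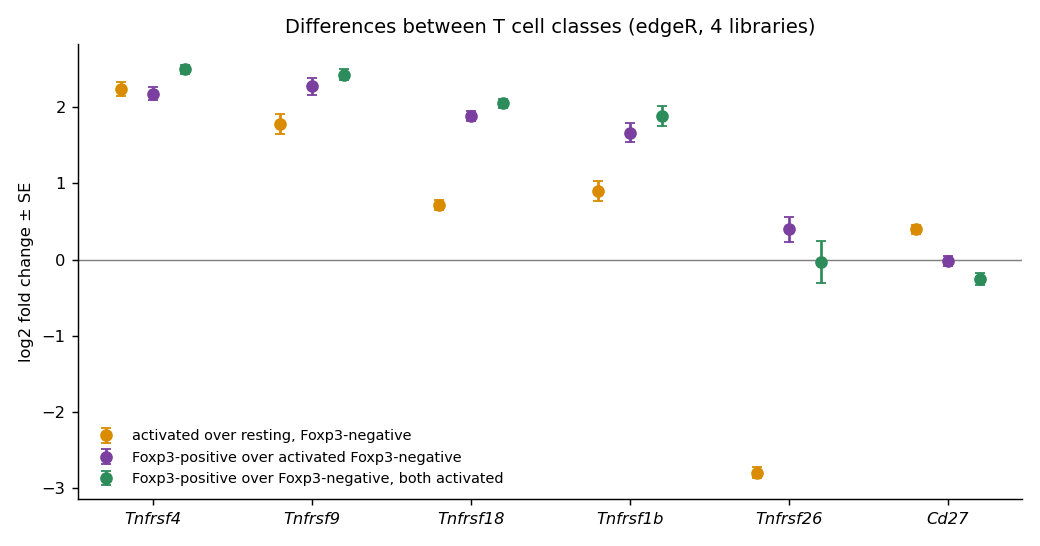
Log2 fold changes (points) with standard errors (bars) from edgeR over 4 libraries, for activated over resting Foxp3-negative cells and for Foxp3-positive over Foxp3-negative cells. Tnfrsf26 stands alone at -2.80 with activation, and the Foxp3 differences of Tnfrsf4, Tnfrsf9, Tnfrsf18 and Tnfrsf1b lie at 1.67 or above.

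The marker lists show what else moved between classes. The 8 B cell markers summed to 67.4 to 186 CPM in Foxp3-positive cells, 19.5 to 30.2 in activated and 44.8 to 73.3 in resting cells, with Cd79a at 1.32 or less in every class. The 8 NK cell markers reached at most 17.3 and the 8 myeloid markers at most 60.9, with Ncr1 at 0 in every class and library. The 7 erythroid markers stood at 24.7, 19.9 and 48.2 in resting, activated and Foxp3-positive cells of the female library labelled wild type and at 1.16 to 9.09 in the other libraries. In free RNA Tnfrsf4 stood at 417 to 817 CPM, Tnfrsf9 at 155 to 282, Tnfrsf18 at 293 to 512 and Tnfrsf1b at 23.2 to 37.8. Within each library these 4 were above the levels of resting and of activated cells and below those of Foxp3-positive cells, while Tnfrsf26 stood at 18.1 to 24.1 and Cd27 at 95.9 to 135. By library, Tnfrsf4 in free RNA was 817, 417, 753 and 514 and Tnfrsf18 was 512, 293, 506 and 331. Tnfrsf9 was 282, 163, 200 and 155 and Tnfrsf1b was 37.8, 25.2, 31.5 and 23.2. So all 4 were higher in both libraries labelled knockout, while Tnfrsf26 and Cd27 overlapped between the labels. The part of free RNA and of other cells in the levels was not tested.

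To compare shares of cells with a UMI at equal depth, each cell was thinned to 2000 UMIs. Tnfrsf4 was then seen in 9.40% to 14.4% of resting, 27.6% to 36.1% of activated and 69.2% to 80.6% of Foxp3-positive cells. The background is its share in 62 erythroid cells, 5 cells or 8.06% (exact 95% interval 2.67% to 17.8%), which the resting share does not clear. Erythroid cells had a median of 15923 UMIs before thinning and T cells 6743. Tnfrsf9 was seen in 2.04% to 6.34% of resting, 14.8% to 18.4% of activated and 43.6% to 53.2% of Foxp3-positive cells, beside 1.61% of erythroid cells (exact 95% interval 0.0408% to 8.66%), which the resting share does not clear either. Tnfrsf18 was seen in 19.7% to 30.5%, 31.0% to 39.4% and 73.9% to 78.2%, beside 6.45%. Tnfrsf1b was seen in 1.58% to 3.04% of resting and 3.93% to 4.61% of activated cells. Both lie within the same interval around 1.61% of erythroid cells, so neither share clears it. In Foxp3-positive cells it was seen in 10.3% to 14.8%. Tnfrsf26 was seen in 13.5% to 14.4% of resting, 1.46% to 2.10% of activated and 2.56% to 3.64% of Foxp3-positive cells, and in 0 of 62 erythroid cells, which allows a share of up to 4.84%, above the activated and Foxp3-positive shares. Cd27 was seen in 21.3% to 26.4% of cells in the Foxp3-negative classes and in 26.8% to 35.9% of Foxp3-positive cells, beside 6.45%. The limit for 0 cells is taken as 3 cells, which is lower than an exact 95% interval would reach. Intervals and limits cover counting error only.

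At that depth, transcripts of 4-1BB and GITR were seen more often in Foxp3-positive cells with an OX40 transcript than in those without, in 4 of 4 libraries. Of Foxp3-positive cells with a Tnfrsf4 UMI, 55.6% to 59.4% across the 4 libraries also had a Tnfrsf9 UMI, against 16.7% to 27.3% of those without. Tnfrsf18 was seen in 84.6% to 96.3% of Foxp3-positive cells with a Tnfrsf4 UMI and in 33.3% to 44.4% of those without. The female library labelled wild type adds few cells to these ranges, 27 with a Tnfrsf4 UMI and 12 without. Tnfrsf9 was seen in 33.3% to 46.4% of Foxp3-positive cells with a Cd27 UMI and in 44.0% to 56.2% of those without, ranges that overlap. In the female library labelled wild type these were 6 of 14 and 11 of 25 cells, nearly the same share. Among activated Foxp3-negative cells Tnfrsf18 was seen in 46.6% to 55.1% of those with Tnfrsf4 and in 23.6% to 31.0% of those without. There Tnfrsf9 was seen in 17.0% to 21.7% and 13.5% to 17.1%, ranges that touch. Cells of a library share their source, so these are descriptions.

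Across 5 bins of the activation score, each with 20% of the cells over equally weighted libraries, OX40 and 4-1BB differed in Foxp3-negative cells. Tnfrsf4 rose at every step in 4 of 4 libraries, from a mean of 71.4 ± 23.2 CPM (SD, n = 4) in bin 1 through 216, 324 and 407 to 477 ± 96.0 in bin 5. Tnfrsf9 rose from 14.2 ± 5.81 in bin 1 to 135 ± 15.5 in bin 2, stayed at 127 ± 8.65 in bin 3 and fell to 110 and 81.2 ± 12.2 in bins 4 and 5. It was lower in bin 5 than in bin 3 in 4 of 4 libraries, by 1.31-fold to 1.85-fold. Per cell it went from 0.77 to 1.62 UMIs in bin 3 to 0.47 to 0.89 in bin 5. So the most activated cells by the score had the highest OX40 and not the highest 4-1BB transcript level.

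The other receptor genes had their own shapes over the same bins of Foxp3-negative cells. Tnfrsf18 was highest in bin 5 in 4 of 4 libraries, at 305 ± 35.3 against 158 ± 38.2 in bin 1. Tnfrsf1b was also highest in bin 5 in 4 of 4 libraries, at 25.3 ± 2.90 against 10.9 ± 2.16. Tnfrsf26 fell at every step in 4 of 4 libraries, from 79.8 ± 6.39 to 5.10 ± 0.75, which is 13.2-fold to 17.5-fold lower. Cd27 stayed between means of 130 and 155 in every bin.

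In Foxp3-positive cells, Tnfrsf4 went from 735 ± 81.2 in bin 1 to 1958 ± 312 in bin 2 and 2740 ± 422 in bin 5, so even bin 1 lay above bin 5 of Foxp3-negative cells. Tnfrsf9 peaked at 1065 ± 86.6 in bin 2, with the highest value there in 3 libraries and in bin 3 in the fourth, the female library labelled wild type, and ended at 386 ± 189. Cd27 was highest in bin 1 in 4 of 4 libraries, at 297 ± 53.7, and stood at 113 ± 52.5 to 177 ± 36.4 in the others. That female library has 5 to 12 Foxp3-positive cells per bin. Bins of the male library labelled wild type fall to 18 cells.

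**Figure D3:**
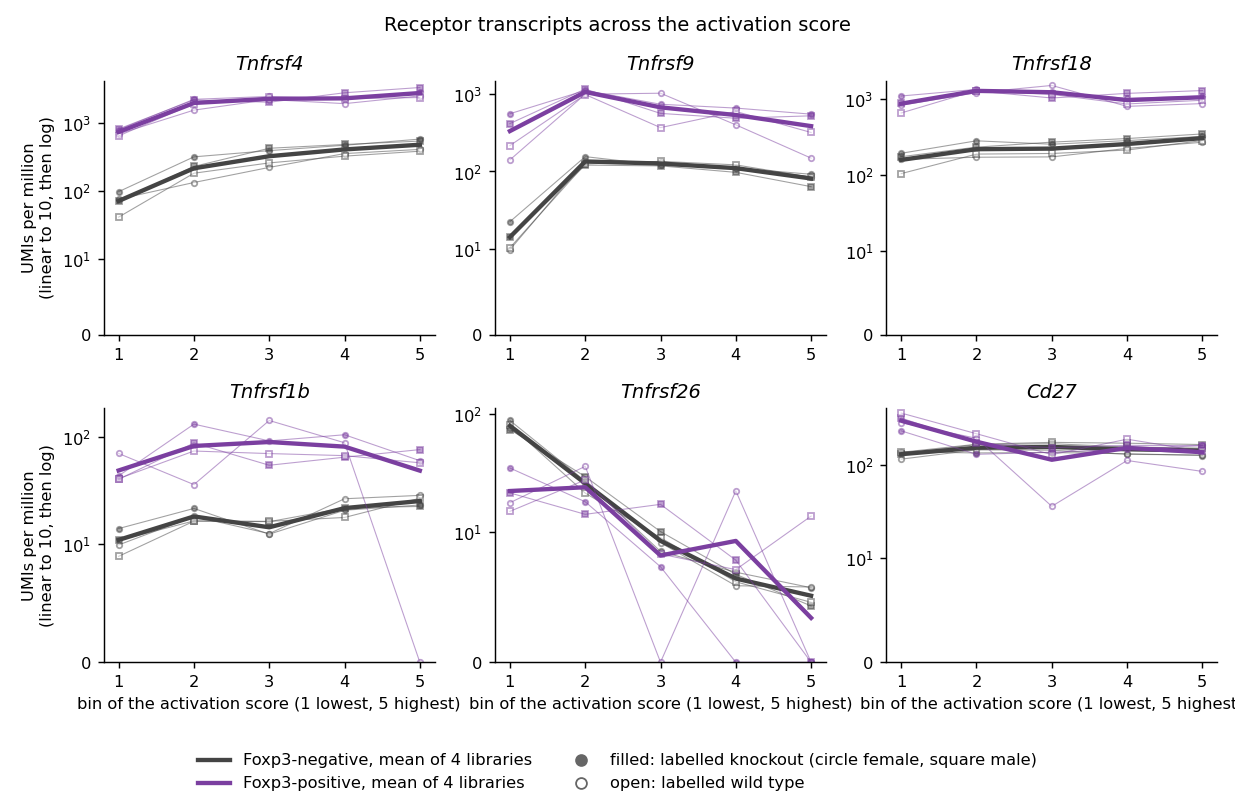
CPM of total UMIs (linear to 10, then log) of each receptor gene in 5 bins of the activation score, for Foxp3-negative and Foxp3-positive cells; thin lines are libraries and thick lines means of 4. In Foxp3-negative cells Tnfrsf4 climbs to a mean of 477, Tnfrsf9 peaks at 135 in bin 2 and Tnfrsf26 falls to 5.10.

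The study compared the Irf5 genotypes, and by label OX40 and GITR transcripts were higher in the knockout libraries. Over all T cells Tnfrsf4 stood at 461, 291, 453 and 326 CPM, a mean of 457 ± 5.15 against 308 ± 24.9 (SD, n = 2 each). Both libraries labelled knockout lay above both labelled wild type, by 1.48-fold (log2 0.57 ± 0.08 SE, edgeR adjusted p = 2.02e-06). Tnfrsf18 stood at 308, 224, 309 and 239, again without overlap, 1.33-fold higher (log2 0.41 ± 0.08, edgeR adjusted p = 6.44e-04). These 2 of the 6 genes were called, both higher, where 2.11% of 12577 genes were called, 1.55% higher and 0.557% lower. The other 4 were not: Tnfrsf9 at log2 0.12 (95% interval -0.05 to 0.29), Tnfrsf1b at 0.01 (-0.18 to 0.20), Tnfrsf26 at 0.06 (-0.13 to 0.25) and Cd27 at -0.11 (-0.28 to 0.05). With sex as a term the fit leaves 1 residual degree of freedom, so its errors lean on the spread of all genes. The 95% intervals use a normal multiplier and are narrower than the edgeR test would give, so an interval without 0 is no call. Without the sex term the edgeR adjusted p were 0.0998 for Tnfrsf4 and 0.156 for Tnfrsf18, at log2 0.57 and 0.41. Tnfrsf18 was also lost without the female or the male library labelled knockout (log2 0.42 and 0.41, edgeR adjusted p = 0.158 and 0.182) and with thinned cells (log2 0.45, edgeR adjusted p = 0.0634).

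By label, Foxp3-positive cells made up 5.04% ± 0.56 of T cells in knockout and 2.91% ± 1.02 in wild-type libraries (SD, n = 2 each), 4.65%, 2.19%, 5.44% and 3.63% by library. The difference of 2.13 points has an exact permutation p of 0.33, two-sided, the smallest that 2 against 2 allows. Thinned to 2000 UMIs the shares were 3.17% ± 0.08 and 1.55% ± 0.72. At the same depth 1 of 62 erythroid cells had a Foxp3 UMI, or 1.61% (exact 95% interval 0.0408% to 8.66%), an interval that holds both means. A Foxp3 UMI was also seen in 7 of 38 B cells, 18.4% (exact 95% interval 7.74% to 34.3%), but in 0 of 19 NK and 0 of 17 myeloid cells. The exact 95% intervals of these NK and myeloid shares reach 17.6% and 19.5%. So the shares in T cells are not shown to exceed the background in cells that should lack Foxp3. Foxp3 in free RNA moved with the label too, at 63.8, 19.9, 44.2 and 28.2 CPM, and its part in the shares was not tested. With Foxp3-positive cells left out, an alternative chosen after the data were seen, Tnfrsf4 stayed at log2 0.49 (edgeR adjusted p = 0.00276) and Tnfrsf18 at 0.34 (edgeR adjusted p = 0.0383), while Tnfrsf9 turned to -0.13 (edgeR adjusted p = 0.828).

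In activated Foxp3-negative cells the same pair of genes passed the test. Tnfrsf4 averaged 477 ± 5.54 in knockout and 342 ± 11.7 CPM in wild-type libraries by label, 1.39-fold (log2 0.48 ± 0.08, edgeR adjusted p = 2.73e-06). Tnfrsf18 averaged 308 ± 6.49 and 248 ± 9.94, 1.24-fold (log2 0.31 ± 0.08, edgeR adjusted p = 0.0118). The background was 2.34% of 11818 genes called, 1.65% higher and 0.685% lower. Tnfrsf9 pointed the other way, at 120 ± 14.0 and 135 ± 0.81, and did not pass (log2 -0.19, 95% interval -0.35 to -0.02, edgeR adjusted p = 0.424). Both calls were lost without the sex term (edgeR adjusted p = 0.0673 for Tnfrsf4 and 0.316 for Tnfrsf18). The call of Tnfrsf18 was lost in DESeq2 (adjusted p = 0.525) and with thinned cells. Tnfrsf18 was lost too without any library in turn, at log2 0.27 to 0.36. Tnfrsf4 was lost without the female knockout, male knockout or male wild-type library by label (edgeR adjusted p = 0.448, 0.435 and 0.0784) and with thinned cells (edgeR adjusted p = 0.0816), at fold changes of log2 0.46 to 0.52.

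In resting Foxp3-negative cells Tnfrsf4 averaged 108 ± 27.9 and 67.6 ± 10.7 CPM, 1.58-fold higher by knockout label (log2 0.66 ± 0.11, edgeR adjusted p = 0.0459). It was the only receptor gene called, where 0.105% of 10505 genes were called, 0.0666% higher and 0.0381% lower. Tnfrsf4 in free RNA was higher by the same label, and its part in this difference was not tested. The call sits at the threshold and was lost in DESeq2 (adjusted p = 1), without the low-count filter (edgeR adjusted p = 0.0693), without the sex term (0.786) and at 1000 UMIs or more (0.0508). It was lost without the female library labelled knockout (log2 0.41, edgeR adjusted p = 0.98). It was lost too without Foxp3-negative cells that carried other regulatory T cell markers (log2 0.44, edgeR adjusted p = 0.267). Tnfrsf18 averaged 201 ± 20.9 and 141 ± 16.9 (log2 0.51 ± 0.10, edgeR adjusted p = 0.0815). Tnfrsf9 averaged 45.4 ± 15.01 and 26.9 ± 7.81 (log2 0.61 ± 0.21, edgeR adjusted p = 0.632), but by sex the gap was log2 1.39 in females and 0.10 in males. Cd27 and Tnfrsf26 differed by log2 0.00 and -0.01, with 95% intervals of -0.22 to 0.21 and -0.23 to 0.21.

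In Foxp3-positive cells no receptor gene passed the test in edgeR or in DESeq2, where 0.457% of 8315 genes were called (0.241% higher, 0.216% lower) and 405 genes had an unadjusted p under 0.05. Tnfrsf9 averaged 700 ± 72.8 in knockout and 532 ± 34.1 in wild-type libraries by label, without overlap (log2 0.37 ± 0.12, edgeR adjusted p = 0.18). It passed only without the female library labelled wild type (log2 0.46, edgeR adjusted p = 0.0457). Tnfrsf4 averaged 1970 ± 13.3 and 1705 ± 176 (log2 0.18, 95% interval 0.02 to 0.34, edgeR adjusted p = 0.893). Tnfrsf18 averaged 1085 ± 35.7 and 976 ± 23.1 (log2 0.13, 95% interval -0.06 to 0.32). Intervals of Tnfrsf1b (-0.24 to 0.65) and Tnfrsf26 (-1.12 to 0.54) are wide at these counts.

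Whether the label difference itself changed between classes was tested with an interaction term, and no receptor gene passed. Tnfrsf9 came nearest: the knockout-over-wild-type difference was log2 0.61 ± 0.13 higher in Foxp3-positive than in activated Foxp3-negative cells (edgeR adjusted p = 0.0819, with 0.104% of genes called, 0.00942% higher and 0.0942% lower). Between resting and activated cells the same difference changed by log2 -0.80 ± 0.16 (edgeR adjusted p = 0.0657, with 0.0377% of genes called, all higher). The first passed without a filter on low counts (edgeR adjusted p = 3.68e-04) and without the female library labelled wild type (0.0104), and the last without that filter (8.64e-05) and without the male library labelled knockout (5.14e-04). For Tnfrsf4 the interaction values were -0.29 and -0.24 (edgeR adjusted p = 0.597 and 0.914). Unadjusted, 785 and 659 genes had a p under 0.05 in these 2 tests, and DESeq2 called none of the 6 genes.

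**Figure D4:**
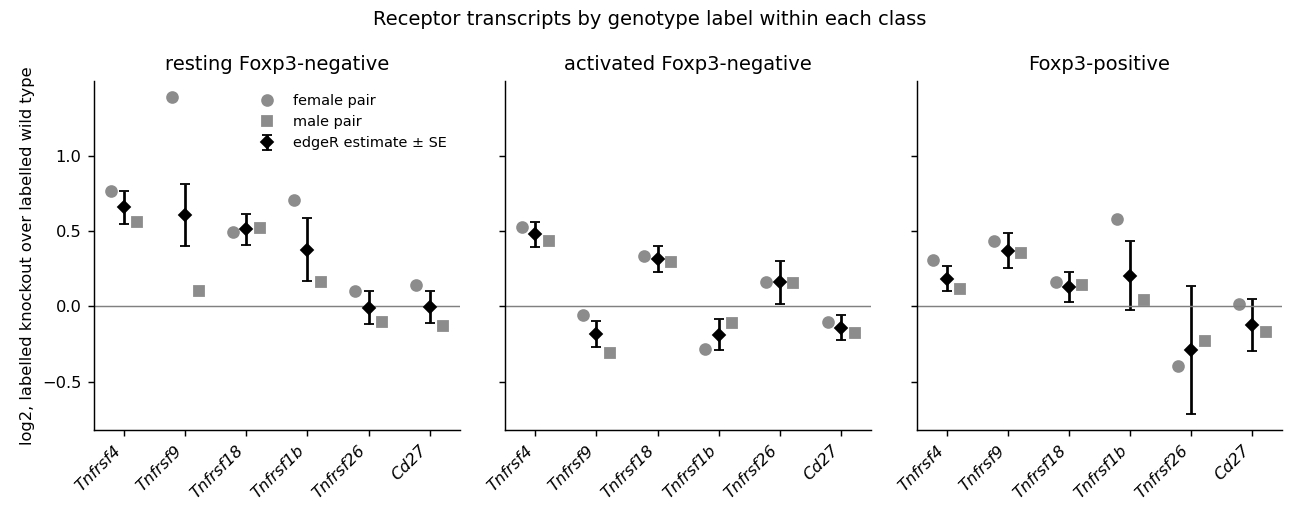
Log2 ratio of libraries labelled knockout over labelled wild type for each receptor gene in the 3 classes: edgeR estimate with standard error (diamonds) and the female and male pairs (grey). Tnfrsf4 and Tnfrsf18 lie above 0 in every class and both sexes, and Tnfrsf9 lies below 0 only in activated cells.

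Among 7071 genes with a mean of at least 10 CPM, likeness over the 12 sums of class and library was measured by Pearson's r of log2(CPM + 1). The sums share libraries and classes, so r is a description. Nearest to Tnfrsf4 were Nfkbia (r = 0.995), the NF-kB inhibitor that NF-kB itself induces, Swap70 (0.995) and Cd83 (0.989). Nearest to Tnfrsf9 were Tnfrsf1b (0.989), Nfkbia and Swap70 (0.986 each). H2afz (0.997), Ezh2 (0.990) and Dusp4 (0.990) were nearest to Tnfrsf18, and Tnfrsf9 (0.989), H2afz (0.981) and Dusp4 (0.979) to Tnfrsf1b. Tnfrsf26 was nearest to Rassf2 (0.994), Add3 (0.993) and Gmfg (0.993). Cd27 had no close neighbour, with Rrad at 0.909, Eid2 at 0.897 and Cox6b1 at 0.896.

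The ligands of these receptors were measured in the same cells. Of 6 ligand genes, 4 could be tested between classes. With activation 2 rose and 1 fell, where 83.2% of all genes were called. Their median log2 fold change was 1.17, beside -0.02 over all genes and a median absolute value of 0.81. Tnf, which binds TNFR2, rose from 7.55 to 9.36 CPM in resting cells to 97.9 to 159 in activated cells (log2 3.92 ± 0.12, edgeR adjusted p = 4.67e-18), and was lower in Foxp3-positive cells, at 42.9 to 76.7. Lta, which encodes lymphotoxin alpha, also a TNFR2 ligand, rose from 16.2 to 24.0 to 51.9 to 88.2 (log2 1.77 ± 0.12) and was higher again in Foxp3-positive cells, at 101 to 142. Tnfsf9, the 4-1BB ligand, stayed at or under 4.64 in every class and library. By label, Tnf and Lta were the 2 of 4 ligand genes called in activated cells (2.34% of all genes were), both lower in knockout libraries, by log2 -0.49 ± 0.09 (edgeR adjusted p = 2.19e-06) and -0.56 ± 0.09 (edgeR adjusted p = 1.13e-07). Both calls were lost without the sex term, at log2 -0.49 and -0.57 (edgeR adjusted p = 0.201 and 0.316), and with thinned cells, at -0.43 and -0.64 (edgeR adjusted p = 0.248 and 0.0816). Leaving out any library but the female one labelled wild type lost them too, at log2 -0.60 to -0.39 for Tnf (edgeR adjusted p = 0.191 to 0.964) and -0.57 to -0.33 for Lta (edgeR adjusted p = 0.228 to 0.748). Lta was also lost in DESeq2, at -0.56 (adjusted p = 0.0829).

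Of 12 TRAF and related adaptor genes, all tested, 7 rose and 4 fell with activation, where 83.2% of all genes were called. Their median log2 fold change was 0.33, beside -0.02 over all genes and a median absolute value of 0.81. In Foxp3-positive cells on the activated side 7 were higher and 0 lower, where 30.4% were called and 16.2% were higher. There the median was 0.42, beside 0.00 over all genes and a median absolute value of 0.28. Traf1, the adaptor of 4-1BB and TNFR2, rose from 91.3 to 94.7 CPM in resting to 177 to 224 in activated and 283 to 374 in Foxp3-positive cells. Traf5, an adaptor of OX40 and CD27, fell from 24.8 to 36.6 in resting to 7.08 to 8.34 in activated cells (log2 -2.01 ± 0.10, edgeR adjusted p = 5.82e-14) and stood at 18.5 to 22.5 in Foxp3-positive cells. Tank stood at 139 to 193 in Foxp3-positive cells, above 64.2 to 81.6 in activated cells. No adaptor gene was called by genotype label in any class.

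Of 16 NF-kB subunit and feedback genes, Nfkbid and Tnfaip3 are in the activation list that set the classes and are left out here. Of the other 14, 11 rose and 3 fell with activation, where 83.2% of all genes were called, 41.2% higher and 42.0% lower. Their median log2 fold change was 0.71, beside -0.02 over all genes and a median absolute value of 0.81. Nfkb1 rose by log2 2.36 ± 0.05 and Rel by 1.78 ± 0.06. In Foxp3-positive cells on the activated side 4 of the 14 were higher and 3 lower, where 30.4% were called, with Nfkbia among the higher ones (log2 0.99 ± 0.05). None of the 16 was called by genotype label in any class.

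Of 21 other receptor genes of the superfamily, 12 could be tested between classes, and 4 rose and 5 fell with activation, where 83.2% of all genes were called. Tnfrsf23, the neighbour of Tnfrsf26, fell with it, from 6.57 to 10.7 to 1.72 to 2.11 CPM (log2 -2.02 ± 0.18, edgeR adjusted p = 1.08e-09). Tnfrsf13b, which encodes TACI, fell with activation from 16.2 to 24.8 to 4.88 to 7.51 and stood at 25.1 to 47.0 in Foxp3-positive cells. Tnfrsf8, which encodes CD30, stood at 3.97 to 9.64 in Foxp3-positive cells and at 0.368 or less in both Foxp3-negative classes. These are few molecules, as 9.64 is the level of 3 UMIs in the female library labelled wild type. On the activated side 4 of 12 were higher in Foxp3-positive cells and 0 lower, where 16.2% and 14.2% of all genes were, Fas among the higher ones (log2 0.80 ± 0.10, edgeR adjusted p = 6.34e-08). Tnfrsf8 is also among the 4, but it passed the low-count filter only through Foxp3-positive cells, so its direction was fixed beforehand. By label, Tnfrsf13b was the 1 of 13 called over all T cells, where 2.11% of all genes were, higher in knockout libraries (log2 0.57 ± 0.12, edgeR adjusted p = 0.00218). No receptor gene of the list, Tnfrsf13b included, was called by label within a class.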

How the data were processed

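The authors deposited raw UMI counts per gene and barcode for every barcode, per the file headers, which name Cell Ranger 4; the submitters' processing notes name Cell Ranger 6.0.2 and mm10. The annotation is not given in the sources used here. Counts of the 4 libraries were filtered and classed as described, with T cells set by marker lists (cells with no T cell marker UMI, or with more UMIs of the B, NK, erythroid or myeloid list than of the T cell list, were left out) and an activated cut at -1.22 by Otsu's rule; clusters gave the same class for 95.2% of cells, and 3.33% to 5.83% of T cells per library lay within 0.5 of the cut. No doublets were removed, because the automatic threshold of scrublet marked 0.0486% of cells in the female library labelled knockout; removal at 0.8% per 1000 cells was an alternative. Between 15576876 and 47277543 T cell UMIs per library were summed by class and tested with edgeR 4.0.16 in R 4.3.3 (quasi-likelihood F-test after filterByExpr, TMM scaling, p-values adjusted by Benjamini and Hochberg over every gene in the fit): sex and genotype for labels, library and class for classes. Called means an adjusted p under 0.05. Levels by score bin and by side of the cut use total UMIs. Intervals of log2 fold changes are nominally at 95%, from a normal multiplier and a standard error derived from the F statistic. They make no allowance for few degrees of freedom and are narrower than the F-test would give. DESeq2 1.42.0, RLE factors, no low-count filter, no sex term, each library left out, thinned cells, a minimum of 1000 UMIs, 2 Foxp3 UMIs, cells near the cut left out and clusters were alternatives. The fits were tested on simulated data with known changes. The named genes are the 6 receptor genes, the 3 genes most like each, and up to 3 genes per pathway list and comparison with the largest called fold change. The receptor genes, gene lists and class rules were chosen with earlier results of these data known. Gene identifiers matched GENCODE M21 for 99.6%; Python 3.11.15 with scanpy 1.11.5, numpy 2.4.6 and scipy 1.17.1 did the rest, and matplotlib 3.10.9 the plots.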

Additional observations from a re-analysis of the deposited data

How the results depend on the processing

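Leaving out each library in turn, the number of receptor genes called by label ran from 1 to 2 over all T cells, 0 to 1 in Foxp3-positive, 0 to 3 in resting and 0 to 1 in activated cells, and 0 to 1 in either test of the difference between classes. It was 6 for activated against resting cells, 4 for Foxp3-positive against activated cells, 6 against resting cells and 5 with both activated. Over all T cells 0 were called without the sex term and 1 with thinned cells, in place of 2. In resting cells 0 were called in DESeq2, without the low-count filter, without the sex term, at 1000 UMIs or more and without cells carrying other regulatory T cell markers, 2 with RLE factors or thinned cells, and 3 with doublets removed or cells near the cut left out, in place of 1. In activated cells 1 was called in DESeq2 or without those marker-carrying cells, and 0 without the sex term or with thinned cells, in place of 2. Without the low-count filter 1 was called in each test of the difference between classes, in place of 0. The difference by label in the share of resting cells was 0.198 points and 0.877 at 1000 UMIs or more.

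Values that changed sign are given here, and the cause was not tested. By label, without Foxp3-positive cells, Tnfrsf9 over all T cells was log2 -0.13 and Tnfrsf1b -0.12; Tnfrsf1b was -0.020 with doublets removed. In resting cells Tnfrsf26 was 0.0094 with doublets removed, 0.048 with thinned cells and 0.032 without the marker-carrying cells. Cd27 there was 0.00095 in DESeq2, 0.0031 without the filter, 0.033 with thinned cells, 0.0029 at 1000 UMIs and 0.0016 without cells near the cut. Between Foxp3-positive and activated cells Cd27 was 0.22 on total UMIs, 0.34 with thinned cells and -0.31 without the low-count filter, past the threshold in each. With both activated, Tnfrsf26 was 0.018 in DESeq2, 0.13 on total UMIs, 0.062 without cells near the cut and 0.20 by clusters, and Cd27 was 0.014 by clusters. The Cd27 difference between classes by label was -0.010 without the filter, -0.28 with thinned cells and -0.21 at 2 Foxp3 UMIs. Without 1 library, ranges that crossed 0 were, for Cd27, -0.28 to 0.069 over all T cells, -0.35 to 0.17 in Foxp3-positive, -0.14 to 0.16 in resting and -0.31 to 0.047 in activated cells and -0.012 to 0.16 for Foxp3-positive against activated by label. They were -0.045 to 0.078 for Tnfrsf1b over all T cells, -0.064 to 0.067 for Tnfrsf26 in resting cells, -0.17 to 0.22 for Tnfrsf26 with both activated and -0.47 to 0.031 for the Tnfrsf4 difference between activated and resting cells.

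Label differences in the shares of cells with a UMI changed with thinning, and for Tnfrsf18 in Foxp3-positive cells with removal of doublets. The knockout-minus-wild-type difference by label, 2.70 points for Tnfrsf4 in resting cells when thinned, was -1.09 unthinned and -0.998 at 1000 UMIs. The same pair was -1.72 and -2.39 for Tnfrsf18 in resting cells (6.47 thinned), -2.17 and -1.90 for Tnfrsf18 in activated cells (7.68 thinned), -0.67 and -0.25 for Tnfrsf1b in Foxp3-positive cells (2.02 thinned) and -1.37 and -1.36 for Tnfrsf26 in activated cells (0.516 thinned). It was -8.43 and -8.82 for Tnfrsf26 (0.407 thinned) and -11.0 and -11.4 for Cd27 (0.554 thinned) in resting cells, -11.6 and -11.5 for Tnfrsf9 in activated cells (-1.23 thinned), and -0.346 for Tnfrsf18 in Foxp3-positive cells with doublets removed (0.80 thinned). Over all alternatives 11 to 309 genes were called by label over all T cells, 0 to 85 in Foxp3-positive, 3 to 407 in resting and 8 to 276 in activated cells.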
